A study of Mus musculus with 26 samples.

Results

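Of the 22316 EZH2 peaks listed for WT replicate 1, 4209 (18.9%) lay away from gene starts and outside of H3K27me3, and these distal EZH2 peaks without H3K27me3 are described here. They were chosen by 4 criteria: a width under 5000 bp, an overlap with a peak of EZH2 WT replicate 2, a distance of more than 2 kb to the transcription start site (TSS) of every gene of the GENCODE M21 annotation, and no overlap with a peak of either WT list of H3K27me3. Of the 15596 EZH2 peaks found in both WT lists they made up 26.99%. The width limit removed none of them, as the widest was 3114 bp (chr14:51062927-51066040) and the next 2611 bp. At the TSS limit, the closest peaks kept lay at 2001 bp (chr19:51142602-51142748) and 2011 bp (chr15:98780161-98781016), with fold enrichments of 3.88 and 6.15. The closest peaks left out lay at 1998 bp (chr1:63181002-63181392) and 1993 bp (chr8:122548818-122549336), with fold enrichments of 6.69 and 6.58. Coordinates are on GRCm38 (mm10). The EZH2 lists and the H3K27me3 lists of WT therefore describe these peaks and test nothing about them.

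All libraries were from female mouse embryonic fibroblasts (MEFs). Peak lists of CUT&RUN, in which a nuclease tethered to an antibody releases the bound DNA, were used from 2 libraries per antibody and genotype. EZH2 and H3K27me3 were mapped in cells of all 3 genotypes (WT, ATRXΔRBR and ATRX KD), and ATRX in the first and second of these. RNA-Seq was used from 2 libraries of each genotype. ATRXΔRBR cells were a clone in which CRISPR/Cas9 had removed the RNA binding region of the chromatin remodeler ATRX, and ATRX KD cells carried an shRNA against Atrx and were selected with puromycin. The clone was single, so that the deletion and other properties of that clone cannot be told apart, and CUT&RUN made with IgG was not analysed here.

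EZH2 is the methyltransferase subunit of the polycomb repressive complex 2 (PRC2), which places H3K27me3 on nucleosomes, typically in broad domains over CpG-rich promoters of silent developmental genes. Enhancers lie away from promoters, are usually poor in CpG, are short open stretches between nucleosomes, and in fibroblasts many of them carry sites of AP-1, the dimer of FOS and JUN family proteins that responds to growth factors. The AP-1 site has the letters TGANTCA, which read the same way on both strands.

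The 4209 peaks fell into kinds by where EZH2 was listed again in the other genotypes. Sequences of 6 of them are given as examples, which do not stand for their kinds. They are the 2 peaks of highest fold enrichment among those listed in all 4 EZH2 lists of ATRXΔRBR and ATRX KD (209 peaks), among those in both ATRXΔRBR lists and neither ATRX KD list (1156 peaks) and among those in none of the 4 (831 peaks). Each is the plus strand of GRCm38, taken from the central 300 bp or from the whole peak where it was shorter, and capitals mark AP-1 letters. The first pair, in an intron of the deacetylase gene Hdac4 and in an intron of Dcun1d4, was listed in all 4.
Hdac4 intron, chr1:92180212-92180511: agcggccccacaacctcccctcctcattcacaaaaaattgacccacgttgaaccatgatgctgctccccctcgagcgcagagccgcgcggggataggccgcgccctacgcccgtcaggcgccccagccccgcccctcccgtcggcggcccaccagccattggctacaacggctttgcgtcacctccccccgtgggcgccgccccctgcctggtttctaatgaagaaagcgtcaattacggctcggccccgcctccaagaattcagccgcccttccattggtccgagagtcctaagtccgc
Dcun1d4 intron, chr5:73490349-73490648: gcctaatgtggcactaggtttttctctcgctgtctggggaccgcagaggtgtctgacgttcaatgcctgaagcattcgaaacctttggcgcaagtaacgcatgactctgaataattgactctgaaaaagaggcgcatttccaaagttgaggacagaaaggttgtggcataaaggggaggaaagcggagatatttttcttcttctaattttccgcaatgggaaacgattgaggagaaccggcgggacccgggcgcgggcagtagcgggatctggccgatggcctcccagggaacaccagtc
The second pair, which was in both ATRXΔRBR lists alone, lay in an intergenic region with Lnpk as the nearest protein-coding gene and in an intron with 4930447A16Rik as the nearest.
Lnpk region, chr2:74416132-74416431: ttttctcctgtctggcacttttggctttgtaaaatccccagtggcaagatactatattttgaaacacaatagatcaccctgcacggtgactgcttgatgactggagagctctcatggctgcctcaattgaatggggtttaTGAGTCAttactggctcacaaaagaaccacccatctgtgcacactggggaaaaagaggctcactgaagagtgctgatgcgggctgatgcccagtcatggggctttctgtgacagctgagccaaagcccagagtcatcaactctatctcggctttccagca
4930447A16Rik region, chr15:37607570-37607838: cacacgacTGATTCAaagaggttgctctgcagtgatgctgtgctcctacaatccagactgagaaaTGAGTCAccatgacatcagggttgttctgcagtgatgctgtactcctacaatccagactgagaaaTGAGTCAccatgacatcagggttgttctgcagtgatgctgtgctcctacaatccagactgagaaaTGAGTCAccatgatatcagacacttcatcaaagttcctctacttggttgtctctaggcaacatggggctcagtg
The third pair, in none of the 4 lists, lay in an intron of Rsph3b and near Foxl1.
Rsph3b intron, chr17:6941791-6942056: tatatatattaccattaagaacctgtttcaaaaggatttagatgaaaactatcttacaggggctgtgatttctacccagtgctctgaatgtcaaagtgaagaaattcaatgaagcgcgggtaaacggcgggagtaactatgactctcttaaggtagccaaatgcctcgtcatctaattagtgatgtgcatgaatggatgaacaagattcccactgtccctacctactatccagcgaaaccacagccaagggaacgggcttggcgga
Foxl1 region, chr8:121134133-121134416: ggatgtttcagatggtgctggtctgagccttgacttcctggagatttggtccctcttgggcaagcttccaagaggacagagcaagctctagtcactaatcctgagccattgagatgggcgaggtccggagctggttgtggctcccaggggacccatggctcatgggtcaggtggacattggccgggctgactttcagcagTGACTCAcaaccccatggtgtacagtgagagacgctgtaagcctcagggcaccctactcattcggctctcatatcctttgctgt
The Hdac4 stretch belonged to a peak of 71.6% GC and held no AP-1 letters, and neither did the Dcun1d4 stretch. The Lnpk stretch held 1 match near its centre, the 4930447A16Rik stretch held 4 in a short tandem repeat, and the Foxl1 stretch held 1. The Rsph3b stretch is not unique in the genome. Words of 40 bases from its start, middle and end occurred at 2, 6 and 6 places, so that reads there could have come from other copies and its fold enrichment is uncertain. The middle word of the 4930447A16Rik stretch occurred at 2 places, and the words of the other 4 stretches occurred once.

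Some properties of the libraries bear on what follows. Read depth is not known from peak lists, and the lists differed in length: the WT lists of EZH2 held 22316 and 18351 peaks, those of ATRXΔRBR 22418 and 11408, and those of ATRX KD 5376 and 7093. The ATRX KD lists stood apart, with a largest −log10 q-value of 170 to 179 against 17.2 to 36.8 in all other lists, and the names of their raw files have another form, without the sequencing run that the WT and ATRXΔRBR libraries share. The knockdown and the way these libraries were made cannot be told apart. Atrx had 8278 and 5195 counts in the WT libraries, 3531 and 4291 in those of ATRXΔRBR and 3768 and 11891 in those of ATRX KD, in libraries of 9051693 to 21723647 counts. Relative to WT the log2 fold change was −0.63 in ATRXΔRBR (SE 0.22, edgeR adjusted p = 0.140) and −0.15 in ATRX KD (SE 0.21, adjusted p = 0.604). The WT libraries had 233 and 141 TPM of it, those of ATRXΔRBR 175 and 124 TPM and those of ATRX KD 331 and 512 TPM. Both libraries labelled ATRX KD thus lay above both WT libraries in TPM and were not called lower in counts, so that a lower Atrx RNA was not seen in them, and ATRX KD below stands for the libraries with that label. The paper describes ATRX protein as depleted in its knockdown cells, with a western blot of nuclear extract. Protein was not measured in the data used here. Fibroblast markers were present, with 9 to 11 of 12 at 1 TPM or more in each library, although Thy1 was listed at 0 in all 6. The 8 markers of epithelium, blood, endothelium and pluripotent cells summed to 1.81 and 2.72 TPM in WT and 6.36 and 4.05 TPM in ATRXΔRBR. In ATRX KD the sums were 0.08 and 0.21 TPM. These are low levels, as 0 or 1 of the 8 reached 1 TPM in each library. In WT and ATRXΔRBR most of the sum was Pecam1, a surface protein of endothelium. Pecam1 was at 0.93 and 1.58 TPM in WT, 5.22 and 3.01 TPM in ATRXΔRBR and 0 in both ATRX KD libraries. Its log2 fold changes were 1.48 (adjusted p = 0.0479) and −7.53 (adjusted p = 0.00373). Cdh5 of endothelium and Pou5f1 of pluripotent cells were at 0 throughout. The part of such cells in the results was not tested.

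The distal peaks without H3K27me3 were short. Their width had a median of 358 bp (quartiles 253 and 536 bp), against 696 bp for the 1575 distal EZH2 peaks with H3K27me3, 680 bp for the 7800 promoter peaks without H3K27me3 and 1596 bp for the 1714 promoter peaks with it. Fold enrichment in WT replicate 1 ran from 1.92 to 12.8 with a median of 4.85, close to the 4.81 of distal peaks with H3K27me3 and below the 5.38 and 5.62 of the promoter classes. By their midpoints, 51.0% of the peaks lay in introns, 38.7% between genes, 5.73% in untranslated regions, 2.64% in exons of noncoding transcripts and 2.00% in coding exons. The 95% Wilson intervals, which cover counting error only, were 49.5 to 52.5% for introns and 37.2 to 40.1% for intergenic peaks. Distal peaks with H3K27me3 had fewer in introns (40.4%) and more between genes (48.3%).

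The nearest protein-coding TSS was at a median of 28735 bp. It was within 10 kb for 23.1% of the peaks, between 10 and 50 kb for 41.4%, between 50 and 100 kb for 16.4% and farther for 19.2%. A total of 828 peaks (19.7%) lay more than 2 kb from every gene start but within 2 kb of the 5′ end of another annotated transcript, so that some of them are at alternative promoters. The closest H3K27me3 peak of WT was at a median of 103796 bp, and 227 peaks (5.39%) had one within 5 kb. Peaks that overlapped these H3K27me3 lists were left out by the rule, and the distance was not measured for other classes.

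In ATRXΔRBR, EZH2 was listed at 2897 of the 4209 peaks in replicate 1 (68.8%) and at 2095 in replicate 2 (49.8%), a mean of 59.3% ± 13.5 (SD, n = 2). In ATRX KD it was listed at 377 (8.96%) and 577 (13.7%), a mean of 11.3% ± 3.36 (SD, n = 2). Both ATRXΔRBR lists lay above both ATRX KD lists, and an exact two-sided permutation test gave p = 0.333, the smallest that 2 libraries against 2 allow. The same shares over all 15596 EZH2 peaks found in both WT lists were 73.6% ± 10.4 and 32.2% ± 5.57 (SD, n = 2). For promoter peaks without H3K27me3 they were 83.5% ± 17.0 and 42.3% ± 7.88, and for distal peaks with H3K27me3 62.5% ± 1.796 and 13.9% ± 2.25. For promoter peaks with H3K27me3 they were 70.5% ± 15.8 and 45.3% ± 4.29. In ATRX KD both distal classes thus lay below both promoter classes, whether or not H3K27me3 was there.

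**Figure D1:**
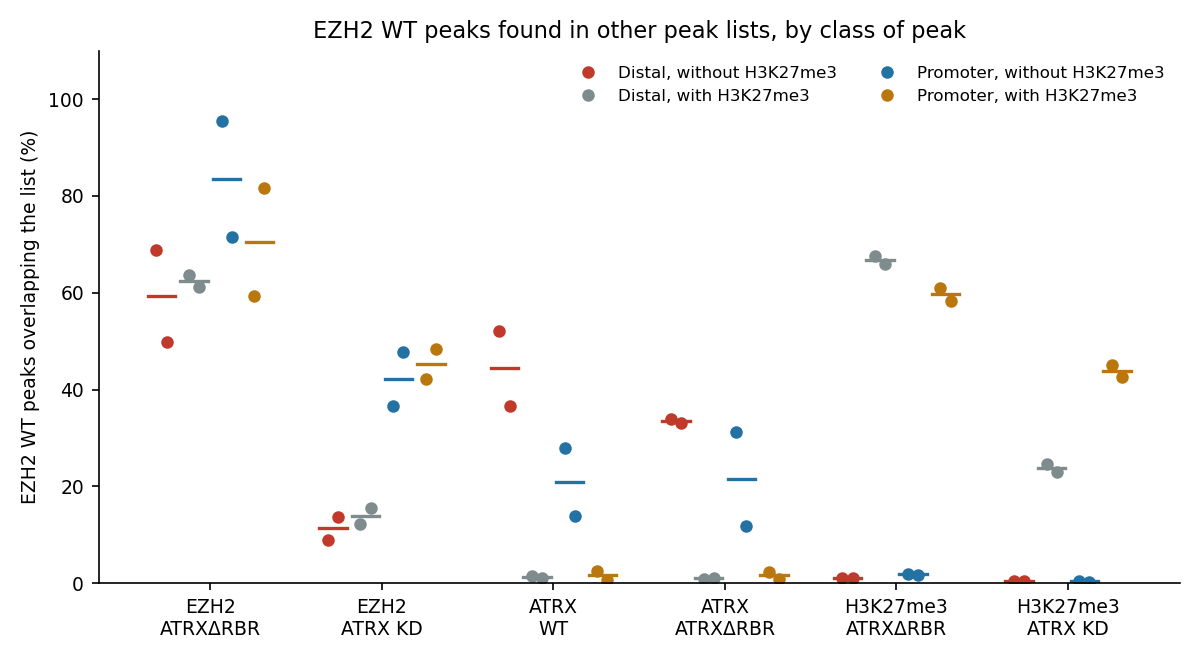
Percent of EZH2 WT peaks, by class of peak, that overlapped a peak of each other list; each point is 1 library and each bar the mean of 2. Distal peaks without H3K27me3 (red) had the highest share with ATRX in WT (52.2% and 36.5%) and under 14% with EZH2 in ATRX KD.

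Counted over libraries, 1641 peaks (39.0%) had EZH2 in both ATRXΔRBR lists, 1710 (40.6%) in a single list and 858 (20.4%) in neither. Over all EZH2 peaks of both WT lists, 57.4% were in both ATRXΔRBR lists and 10.2% in neither. In ATRX KD, 258 (6.13%) were in both lists and 3513 (83.5%) in neither, against 23.4% and 59.1% of all EZH2 peaks. Of the 858 peaks absent from both ATRXΔRBR lists, 831 were absent from both ATRX KD lists as well. The ATRXΔRBR share followed the strength of the WT peak. From the lowest to the highest quartile group of WT fold enrichment, 25.1%, 29.3%, 41.2% and 60.5% of the peaks had EZH2 in both ATRXΔRBR lists. Whether weaker peaks were absent or only below the calling threshold was not tested, as read counts at the peaks were not analysed here.

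When the same rule was applied to the lists of the other genotypes, 1862 peaks of ATRXΔRBR and 551 of ATRX KD met it. These made up 19.7% of the 9458 EZH2 peaks found in both ATRXΔRBR lists and 13.3% of the 4134 found in both ATRX KD lists. In WT the share was 26.99% of 15596. Of the 1862, 11 (0.591%) were in neither WT list of EZH2, so that nearly all had an EZH2 peak in WT. Of the 551, 142 (25.8%) were in neither, and 123 of these 142 lay on assembled chromosomes.

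H3K27me3 was hardly seen at these sites in any genotype. Its absence in WT was part of the rule. In ATRXΔRBR, 46 peaks (1.09%) overlapped H3K27me3 in replicate 1 and 42 (0.998%) in replicate 2, and in ATRX KD 18 (0.428%) and 15 (0.356%). Distal peaks with H3K27me3 in WT had it in 66.7% ± 1.17 of cases in ATRXΔRBR and in 23.9% ± 1.17 in ATRX KD (SD, n = 2). Promoter peaks without H3K27me3 in WT were also low, with 1.87% ± 0.127 in ATRXΔRBR and 0.353% ± 0.0816 in ATRX KD (SD, n = 2). Low shares were thus not particular to distal peaks.

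ATRX lay at many of these sites. In WT, 2197 of the 4209 peaks (52.2%) overlapped an ATRX peak in replicate 1 and 1538 (36.5%) in replicate 2, a mean of 44.4% ± 11.1 (SD, n = 2). The ATRX lists had no role in choosing the peaks. Means were 20.9% ± 10.0 for promoter peaks without H3K27me3, 1.27% ± 0.359 for distal peaks with H3K27me3 and 1.604% ± 1.36 for promoter peaks with it. A total of 1254 peaks (29.8%) had ATRX in both WT lists, against 12.9% of all EZH2 peaks, and 1728 (41.1%) had it in neither.

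In ATRXΔRBR, ATRX was listed at 33.9% and 33.1% of the peaks, a mean of 33.5% ± 0.588 (SD, n = 2). The difference from WT of 10.9 percentage points was smaller than the gap between the WT libraries, although both ATRXΔRBR libraries lay below both WT libraries (exact two-sided permutation test, p = 0.333, the smallest possible). Of the 1254 peaks with ATRX in both WT lists, 631 (50.3%) had it in both ATRXΔRBR lists, 501 (39.95%) in a single list and 122 (9.73%) in neither. In all, 782 of the 4209 peaks (18.6%) had ATRX in both ATRXΔRBR lists, against 8.83% of all EZH2 peaks. EZH2 was present in both ATRXΔRBR lists at 44.1% of the peaks with ATRX in both WT lists and at 36.9% of those with ATRX in neither. In ATRX KD, EZH2 was absent from both lists at 81.8% and 83.8% of them.

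AP-1 letters set the peaks apart from the other classes of EZH2 peak. AP-1 letters were present in the central 300 bp of 2204 of the 4208 peaks on assembled chromosomes (52.4%). The share was 10.96% in distal peaks with H3K27me3, 6.45% in promoter peaks without and 4.03% in promoter peaks with H3K27me3, and 8.84% of 8824592 windows of 300 bp tiled over the genome held them. The rule did not use sequence. The letters TGACTCA or its reverse complement TGAGTCA, the site to which FOS and JUN dimers bind most strongly, were in 45.7% of the peaks and TGAATCA or TGATTCA in 13.3%. A single match was found in 34.4% and 2 or more in 18.01%. Such a match is a description of the letters and does not show that AP-1 was bound.

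TGACTCA and TGAGTCA were concentrated at the centre of the peaks. In the 50 bp bins on either side of the centre there were 13.1 and 14.0 matches per 100 peaks, and in bins centred 525 bp or more away between 0.737 and 1.21. In the other 3 classes no bin exceeded 2.23 matches per 100 peaks. Weak and strong peaks were alike in the share with TGANTCA in the central 300 bp. It was 51.0% in the lowest and 52.0% in the highest quartile group of WT fold enrichment. The concentration at the centre was not measured by peak strength.

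**Figure D2:**
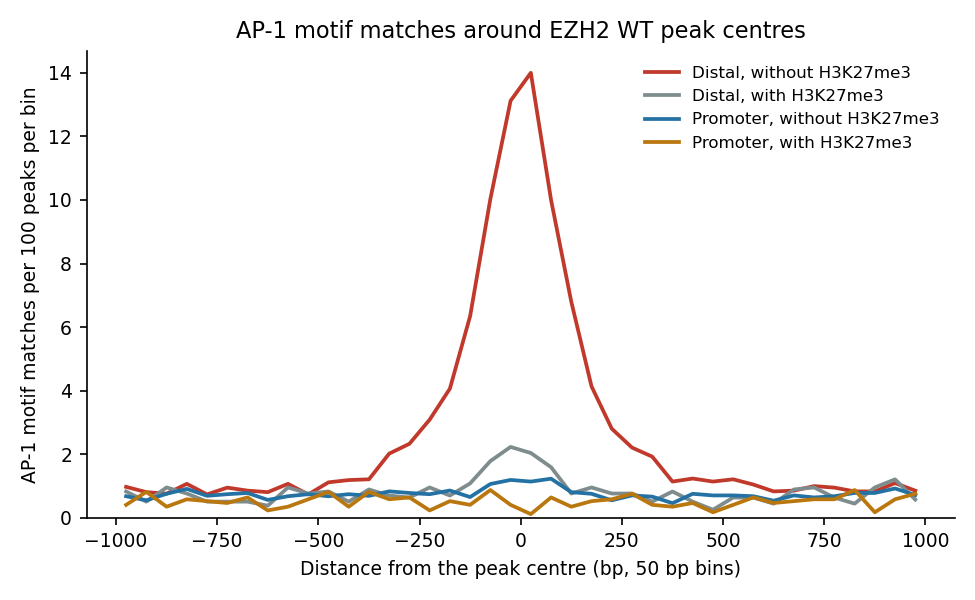
Number of AP-1 sites (TGACTCA or TGAGTCA) per 100 peaks in 50 bp bins by distance from the centre of EZH2 WT peaks, for 4 classes of peak. Only the distal peaks without H3K27me3 (red) rose to 13.1 and 14.0 at the centre, while the other classes stayed at or below 2.23.

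Other motifs were searched on both strands in the same windows. The TEAD letters GGAATG were in 21.6% of the peaks and 15.9% of genome windows, and the RUNX letters TGTGGTT in 10.6% and 6.92%. GGGCGG, bound by SP and KLF proteins, was in 21.5% of the peaks, against 68.5% of promoter peaks without H3K27me3. The ETS letters CCGGAAG were in 3.16% against 15.9%, and the NRF1 letters GCGCNTGCG in 2.14% against 12.1%. In distal peaks with H3K27me3 these shares were close to those of the peaks, at 19.1%, 2.23% and 1.85%. TGACGTCA, the site of CREB and ATF dimers, was in 1.21%. The motif of the insulator protein CTCF was in 1.57%, against 5.74% of distal peaks with H3K27me3. These 5 were rarer still in genome windows, at 2.81% for GGGCGG, 0.837% for CCGGAAG, 0.158% for GCGCNTGCG, 0.160% for TGACGTCA and 0.0747% for CTCF.

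The median GC content of the peaks was 50.7% (95% interval of the median 50.4 to 51.1%). This was above the 41.7% of the genome and below the 63.4% of promoter peaks without H3K27me3. CpG dinucleotides were depleted, with a median observed to expected ratio of 0.273 against 0.808 at those promoters. Repeats were sparse, as a median of 5.70% of the bases was masked against 36.4% of the genome. Distal peaks with H3K27me3 were similar, with medians of 50.3% GC, a CpG ratio of 0.335 and 9.92% masked. Few masked bases were also found in promoter peaks, with medians of 4.09% without and 8.42% with H3K27me3.

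Sequence and fate moved together. Peaks with EZH2 in both ATRXΔRBR lists had AP-1 letters in 44.7% of cases, and those in neither in 64.9%. Between ATRX KD lists the contrast was larger: 12.4% of the 258 peaks in both and 57.2% of those in neither had them. The 258 peaks kept in ATRX KD were GC-rich (median 59.9%), had a CpG ratio of 0.743 and lay in 53.9% of cases within 2 kb of a transcript's 5′ end. GGGCGG was in 56.98% of them. ATRX went with AP-1 in WT, as 63.1% of the peaks with ATRX in both WT lists and 38.8% of those with ATRX in neither had AP-1 letters. CTCF went the other way, with 0.160% and 3.36%.

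The peaks were split by sequence into 3 kinds. CpG-rich peaks, with at least 50% GC and a CpG ratio of at least 0.6, numbered 694 (16.5%), and 7.20% of them had AP-1 letters. EZH2 was listed at 93.8% and 67.3% of them in ATRXΔRBR and at 30.6% and 38.5% in ATRX KD, and ATRX at 20.6% and 10.5% in WT. The 2154 other peaks with AP-1 letters had EZH2 at 59.9% and 46.9% in ATRXΔRBR and at 2.88% and 6.22% in ATRX KD, and ATRX at 62.4% and 44.5% in WT. The 1360 remaining peaks had EZH2 at 70.2% and 45.3% in ATRXΔRBR and at 7.57% and 12.9% in ATRX KD, and ATRX at 52.2% and 37.2% in WT. In both ATRX KD lists, CpG-rich peaks were thus listed several times as often as AP-1 peaks, while the ATRX lists of WT had the reverse order. CpG-rich peaks were also wider (median 587 bp against 315 bp), and the part of width in these shares was not tested.

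**Figure D3:**
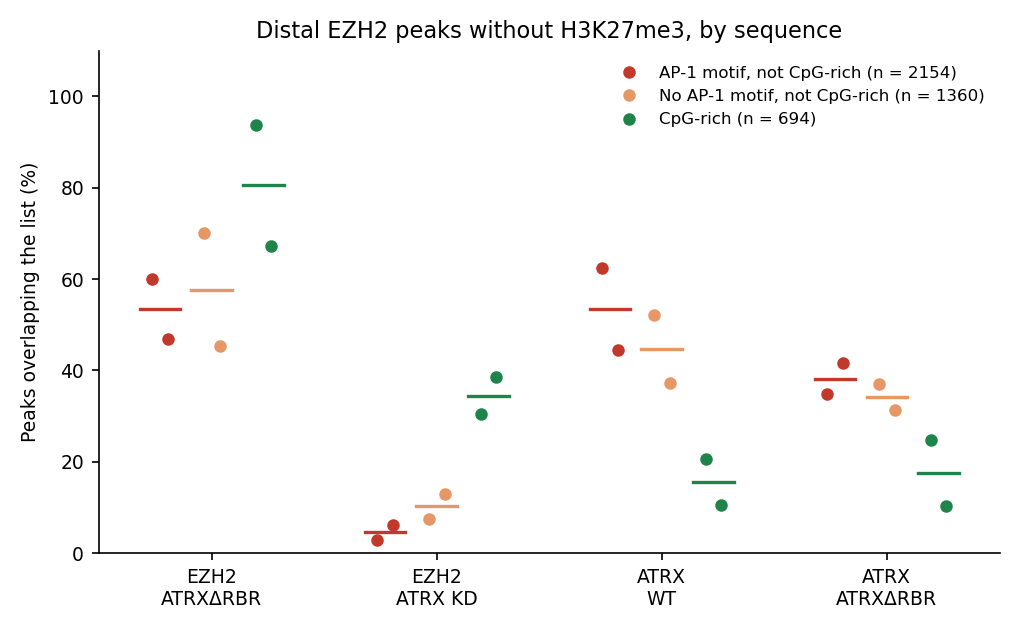
Percent of distal EZH2 peaks without H3K27me3 that overlapped each EZH2 or ATRX list, split by sequence into AP-1, other and CpG-rich peaks; points are the 2 libraries and bars their mean. CpG-rich peaks (green) were highest for EZH2 in ATRX KD (30.6% and 38.5%) and lowest for ATRX in WT (20.6% and 10.5%).

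Peaks with and without AP-1 letters, the latter including the CpG-rich ones, were also compared at like strength in WT. In the highest quartile group of WT fold enrichment, 50.8% of peaks with AP-1 letters and 70.9% of those without had EZH2 in both ATRXΔRBR lists. In the lowest quartile group the shares were close, at 23.7% and 26.6%, and by single list they went opposite ways, with 54.6% and 66.5% in replicate 1 but 36.7% and 33.7% in replicate 2. In ATRX KD, EZH2 was absent from both lists at 87.4% of the AP-1 peaks of the highest quartile group and at 56.2% of the others, and in the lowest at 93.3% and 84.9%.

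The peaks were spread over the assembled chromosomes at 1.54 per Mb, with 3.22 per Mb on chromosome 19 and 0.216 per Mb on the X, where 37 were found. The share found again in ATRXΔRBR varied by chromosome. On chromosome 6, EZH2 was listed at 54.5% of 178 peaks in replicate 1 and at 25.3% in replicate 2, and on chromosome 10 at 63.3% and 26.9% of 283. On chromosome 15 it was listed at 85.4% and 54.3% of 247 and on chromosome 19 at 78.3% and 62.1% of 198. The shares in both lists were 18.5% on chromosome 6 and 22.97% on chromosome 10, against 51.8% on chromosome 15, 51.5% on chromosome 19 and 39.0% in all. All EZH2 peaks of both WT lists showed the same low values on these 2 chromosomes, with 34.4% and 42.6% against 57.4% over all chromosomes. Chromosome 5 differed in that replicate 2 was not the lower, with 66.3% and 68.3%.

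RNA levels of whole chromosomes also moved. The median log2 fold change of all tested genes in ATRXΔRBR was 0.32 on chromosome 1, 0.28 on chromosome 15, −0.22 on chromosome 5 and −0.23 on chromosome 9, against −0.02 over all of them, and it was −0.09 on chromosome 6 and −0.10 on chromosome 10. In ATRX KD it was −0.45 on chromosome 15 and −0.40 on chromosome 19. Differences in chromosome number between cultures were not tested. The X peaks were unlike the rest, with AP-1 letters in 10.8%, ATRX in WT at 16.2% and 5.41% and EZH2 in ATRX KD at 18.9% and 37.8%. On chromosome 10, ATRX was listed at 68.9% and 54.1% of the peaks in WT, and on chromosome 7 at 29.7% and 17.4%.

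**Figure D4:**
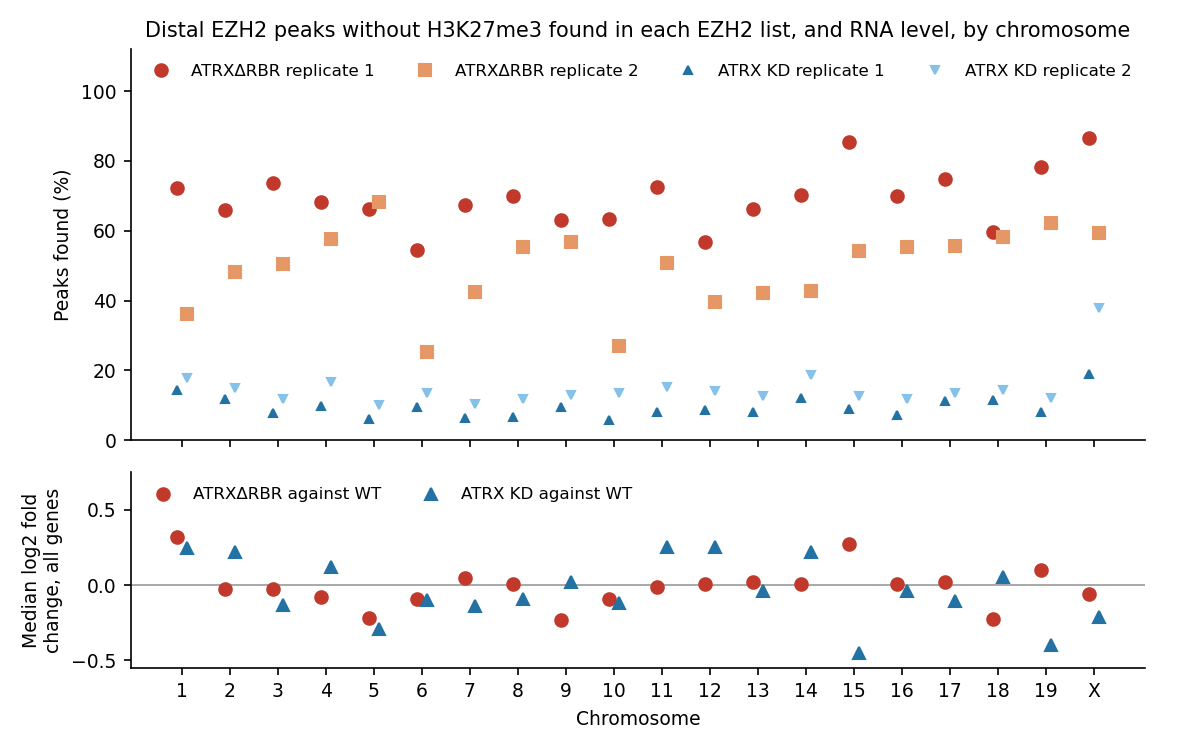
Top, percent of the distal EZH2 peaks without H3K27me3 of each chromosome found in each EZH2 list of ATRXΔRBR and ATRX KD; bottom, median log2 fold change of all tested genes of the chromosome in RNA-Seq against WT. Replicate 2 of ATRXΔRBR was at 25.3% on chromosome 6 and 26.9% on chromosome 10.

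Most peaks stood alone. Joined where they were at most 12.5 kb apart, 653 of them formed 303 groups and 7 groups held 4 or more. The largest had 6 peaks over 17879 bp at Plec (chr15:76189923-76207801), which codes for the cytoskeletal linker plectin, and 5 of the 6 had EZH2 in both ATRXΔRBR lists. Groups of 5 lay near Scgb1a1 on chromosome 19 and between Col4a1 and Rab20 on chromosome 8. A group of 4 near Sgk1, a kinase induced by serum and glucocorticoids, had ATRX in both WT lists at all 4 peaks. The other groups of 4 were near Ahnak, near Mylk2 and Foxs1, and near Trabd2b.

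The 10 peaks of highest fold enrichment showed the mixture. The highest was the Hdac4 intron peak (chr1:92179667-92181057, 12.8-fold, 14642 bp from the TSS), which was in all 4 other EZH2 lists and had ATRX in replicate 1 of WT and of ATRXΔRBR. The Dcun1d4 peak (11.5-fold), the Rab35 peak (chr5:115652730-115653330, 11.4-fold), the Zfp574 peak (chr7:25076805-25077567, 11.2-fold) and the Wnt7b peak (chr15:85634300-85635155, 10.2-fold) were likewise in all 4. The Lnpk peak (12.1-fold) and the 4930447A16Rik peak (10.4-fold) were in both ATRXΔRBR lists only. The Nrap peak (chr19:56373943-56374438, 9.99-fold) was missing from ATRX KD replicate 1, and the D5Ertd579e peak (chr5:36714838-36715141, 9.96-fold) was listed in ATRXΔRBR replicate 1 alone. The Rsph3b peak (10.0-fold), whose sequence has copies, was in none.

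The protein-coding genes nearest to the peaks were mostly expressed. Nearness does not show that a peak acts on the gene. There were 3232 such genes, 3229 of them in the RNA-Seq table, which was 14.7% of 22028 protein-coding genes. Their median level in WT was 12.1 and 14.2 TPM, a mean of 13.1 ± 1.49 (SD, n = 2), and 70.8% ± 0.591 of them reached 1 TPM. All protein-coding genes had a median of 1.59 ± 0.163 TPM and 51.9% at 1 TPM. Genes nearest to distal peaks with H3K27me3 had 0.0650 TPM and 32.9% at 1 TPM, those nearest to promoter peaks without it 34.8 TPM and 94.0%, and those nearest to promoter peaks with it 0.138 TPM and 30.7%. The level was higher where more peaks were near: 11.9 TPM for genes with 1 peak, 16.4 TPM with 2 and 21.1 TPM with 3 or more. It was 21.6 TPM for genes with a peak within 10 kb. The promoters of the nearest genes carried EZH2 in both WT lists in 55.04% of cases and H3K27me3 in 13.6%, against 42.9% and 14.8% of other protein-coding genes.

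**Figure D5:**
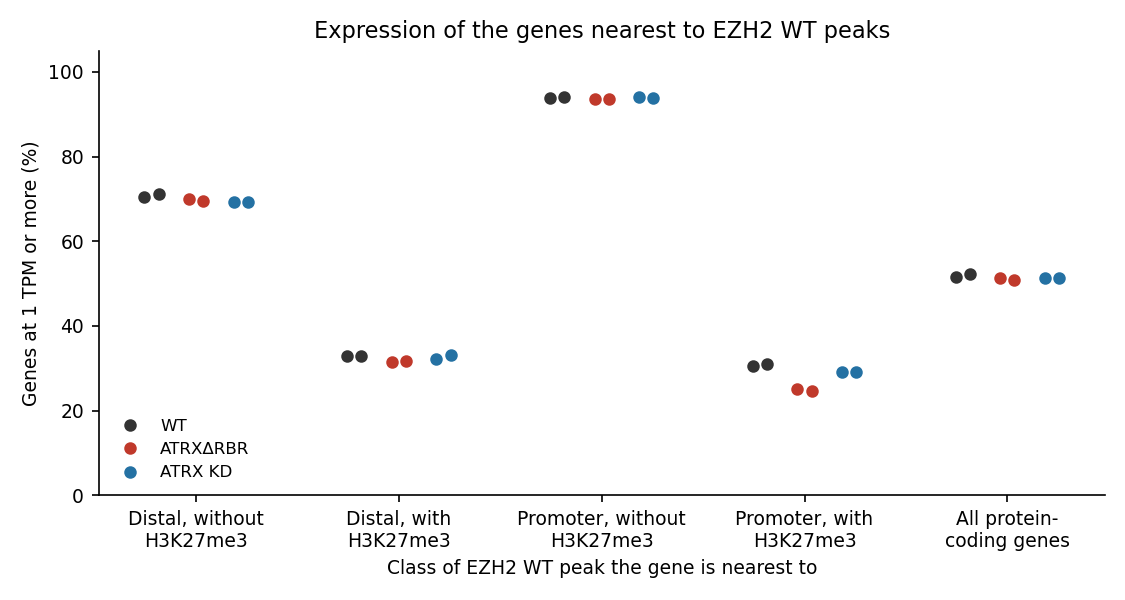
Percent of genes at 1 TPM or more in each RNA-Seq library, for protein-coding genes nearest to each class of EZH2 WT peak and for all of them; each point is 1 library. Genes nearest to distal peaks without H3K27me3 had 70.4% and 71.2% in WT, and those nearest to distal peaks with H3K27me3 about 32.9%.

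In ATRXΔRBR, 129 of 2514 tested nearest genes were higher than in WT (5.13%) and 147 were lower (5.85%), by edgeR's quasi-likelihood test with an adjusted p under 0.05. Over all genes 2.79% were higher and 4.08% lower, and over protein-coding genes 3.35% and 5.03%. The median log2 fold change of the nearest genes was 0.03. In bulk RNA, fewer cells of a type and less RNA per cell cannot be told apart. In ATRX KD, 554 of 2519 were higher (21.99%) and 581 lower (23.1%), with a median of −0.01, against 15.2% and 17.8% of all genes and 18.4% and 21.1% of protein-coding genes. In both comparisons the nearest genes lay above all genes in each direction, and the protein-coding genes lay between. The order rested in part on how genes were assigned to peaks. With the nearest gene of any biotype, 60 of 1620 (3.70%) were lower in ATRXΔRBR, below all genes. With a limit of 50 kb 93 of 1859 (5.003%) were lower, below protein-coding genes. In ATRX KD the nearest gene of any biotype gave 18.27% higher and 20.51% lower, and the gene holding the peak 25.09% and 20.44%. Of these, only the 25.09% lay above protein-coding genes, though all lay above all genes. A limit of 50 kb kept the order in ATRX KD (21.15% and 22.66%). Of the genes nearest to promoter peaks with H3K27me3, 6.08% were higher and 24.0% lower in ATRXΔRBR. For distal peaks with H3K27me3 the shares were 4.46% and 10.3%, and for promoter peaks without it 2.36% and 2.40%. Both comparisons share the WT libraries.

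Shares by the fate of the peak are to be read against 3.35% higher and 5.03% lower of all protein-coding genes in ATRXΔRBR. Of 603 tested genes with a peak absent from both ATRXΔRBR lists, 30 (4.98%) were higher and 36 (5.97%) lower in ATRXΔRBR. Of 862 genes whose peaks were all in both ATRXΔRBR lists, 34 (3.94%) were higher and 39 (4.52%) lower. Genes near AP-1 peaks had 86 of 1429 higher (6.02%) and 102 lower (7.14%). For genes with a peak within 10 kb, 53 of 763 were higher (6.95%) and 30 lower (3.93%) in ATRXΔRBR, while in ATRX KD 142 (18.6%) were higher and 195 (25.6%) lower, beside 18.4% and 21.1% of protein-coding genes.

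The genes with most peaks were not of a single kind. Nfatc2, a calcium-responsive transcription factor, was nearest to 8 peaks and was listed at 0.05 to 0.47 TPM in all libraries. Jmjd1c, a jumonji-domain protein, had 7 peaks, all with ATRX in both WT lists and none with EZH2 in ATRX KD, and stood at 34.3 and 57.3 TPM in WT, 62.3 and 34.8 TPM in ATRXΔRBR and 63.9 and 65.8 TPM in ATRX KD. Plec also had 7 peaks. It stood at 69.0 and 52.8 TPM in WT, 153 and 122 TPM in ATRXΔRBR and 123 and 142 TPM in ATRX KD. All 4 other libraries lay above both WT libraries, with a log2 fold change of 1.10 in ATRXΔRBR (SE 0.21, adjusted p = 0.0212) and 0.89 in ATRX KD (SE 0.19, adjusted p = 0.0125). Celf4 and Gpat3 had 6 peaks each and passed the test in neither comparison. Arid1b, a subunit of the BAF remodeling complex, had 5 peaks, all with EZH2 in both ATRXΔRBR lists, and rose in ATRX KD by 0.84 (SE 0.16, adjusted p = 0.00818). Cd180, Foxa2, Gm26897 and Scgb1a1 had 5 peaks each and none exceeded 0.58 TPM. In all, 7 genes had 5 peaks, and ties among them were broken by the order of symbols, so that not all are named. Among the genes nearest to the strongest peaks, Hdac4 was at 7.66 and 5.24 TPM in WT, 18.02 and 12.3 TPM in ATRXΔRBR and 18.2 and 16.5 TPM in ATRX KD. It rose by 1.22 (SE 0.20, adjusted p = 0.00915) and by 1.12 (SE 0.16, adjusted p = 0.00269), and its peak was kept in all 4 lists. Dcun1d4 and Rab35, whose peaks were also kept, fell in ATRX KD by 0.84 and 0.48 on the log2 scale (adjusted p = 0.00756 and 0.0190). The Rab35 call was lost without ATRX KD replicate 1 (adjusted p = 0.278) or 2 (0.199).

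Among nearest genes that rose in ATRXΔRBR, Cdsn, an adhesion protein of cornified epithelium, went from 11.5 and 12.6 TPM in WT to 82.3 and 84.1 TPM and was at 2.33 and 2.28 TPM in ATRX KD. Its log2 fold changes were 2.73 (SE 0.19, adjusted p = 0.000336) and −2.61 (SE 0.20, adjusted p = 0.000313). Its peak lay 2179 bp from the TSS and had EZH2 in both ATRXΔRBR lists and neither ATRX KD list. Spon2, a secreted matrix protein, rose by 2.28 and was lower by −3.50 in ATRX KD. Hhipl1 (3.35) and Susd4 (1.89) rose in both comparisons, with 2.70 and 2.35 in ATRX KD. Sybu (2.33), the adhesion molecule Alcam (2.78), the tight junction protein Cldn1 (1.87) and the serine protease Htra3 (2.08) completed the 8 of lowest adjusted p, all at or below 0.00127. Peaks of Hhipl1, Cldn1, Htra3 and Susd4 were kept in both ATRXΔRBR lists.

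Of the nearest genes that fell in ATRXΔRBR, Dlk1, an imprinted Notch-related gene, went from 50.01 and 43.6 TPM in WT to 0.06 and 0.08 TPM, with 6.31 and 6.05 TPM in ATRX KD. The log2 fold change was −8.55 (SE 0.47, adjusted p = 0.000216). Cd34, a surface sialomucin, had 116 and 146 TPM in WT, 19.2 and 16.9 TPM in ATRXΔRBR and 0.23 and 0.17 TPM in ATRX KD, and its peak was absent from all 4 EZH2 lists. The endothelial marker Pecam1, given above, was at 0 in ATRX KD, though higher in ATRXΔRBR. Epha3, an ephrin receptor, went from 3.61 and 5.31 TPM to 0.04 and 0.05 TPM in ATRXΔRBR but to 15.9 and 14.6 TPM in ATRX KD, with log2 fold changes of −6.53 (SE 0.44) and 1.57 (SE 0.18). Panx1, a membrane channel, fell from 12.7 and 12.4 TPM to 0 and 0.08 TPM. Medag (−4.59), Tenm3 (−4.62), Nsg1 (−2.50) and Dusp22 (−3.94) were the others, with adjusted p of 0.000604 or less. Peaks of Medag and Tenm3 were in both ATRXΔRBR lists, so that genes fell with and without loss of the peak.

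In ATRX KD, nearest genes of the lowest adjusted p that fell were Cd34, the matrix genes Tgfbi (−5.42) and Col3a1 (−6.99), the adhesion genes Clmp (−7.29) and Vcam1 (−4.15), Apbb1ip (−7.85), Cacna2d1 and Slc7a11. Col3a1, fibrillar collagen III, went from 28.1 and 32.2 TPM in WT to 0.36 and 0.75 TPM. Cacna2d1, counted 970 and 1110 times in WT, was listed at 0 in both ATRX KD libraries. For the cystine transporter Slc7a11, estimated counts were 567 and 685 in WT and 16 and 36 in ATRX KD, whereas TPM were 8.67 and 15.8 against 5.54 and 6.19, so that the size of its fall depended on the unit. Those that rose were the ubiquitin ligase Trim25 (5.19), Elmo1 (3.66), Slco4a1 (2.96), the vasodilator peptide Adm (3.09), Olfm1 (2.45), the coactivator Ppargc1a (2.93), Susd4 and Fbn1 (2.14), with adjusted p of 0.000142 or less. Fbn1, fibrillin of the matrix, went from 20.5 and 27.7 TPM to 121 and 125 TPM. Elmo1 had 3 peaks, all with AP-1 letters and none with EZH2 in ATRX KD.

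Members of 6 gene lists were counted, and between 25% and 70.0% of a list was nearest to a peak, against 14.7% of all protein-coding genes. The lists were chosen with earlier results of these data known. Of the 12685 protein-coding genes tested in ATRXΔRBR, 2514 were nearest to a peak, and the part of expression in the shares was not tested. Over all protein-coding genes tested, 3.35% were higher and 5.03% lower in ATRXΔRBR and 18.4% and 21.1% in ATRX KD, with median log2 fold changes of −0.02 and −0.03, and each list was set beside these. Of the 29 genes of the actin cytoskeleton and adhesion, 10 were nearest to a peak, with 21 peaks between them. By edgeR's adjusted p 0 of the 28 tested were called in ATRXΔRBR, where 5 were higher and 3 lower at an unadjusted p under 0.05 and DESeq2 called 1 higher and 1 lower. In ATRX KD 10 rose (35.7%) and 7 fell (25%), and the median log2 fold changes of the list were 0.05 and 0.04. Tpm1, a tropomyosin, had 4 peaks, 3 of them with ATRX in both WT lists, and fell in ATRX KD by 0.93 (adjusted p = 0.00146). Flnc, a filamin that links actin filaments, rose by 1.24 (adjusted p = 0.000596). Myh9, nonmuscle myosin, had 3 peaks and rose by 0.60 (adjusted p = 0.0110), a call lost without ATRX KD replicate 2 (adjusted p = 0.147). Of the extracellular matrix list, 14 of 34 genes were nearest to 24 peaks. Of the 32 and 31 genes tested, 3 rose (9.38%) and 5 fell (15.6%) in ATRXΔRBR, and 14 rose (45.2%) and 9 fell (29.03%) in ATRX KD, with medians of −0.22 and 0.27. The lysyl oxidase gene Lox had 2 peaks, both with ATRX in both WT lists and EZH2 in neither ATRXΔRBR list, and was at 576 and 638 TPM in WT, 565 and 420 TPM in ATRXΔRBR and 1125 and 1066 TPM in ATRX KD. Its log2 fold change was 0.58 in ATRX KD (adjusted p = 0.00556), and the call was lost without ATRX KD replicate 1 (0.130) or 2 (0.0640). Col6a3 rose by 1.06 in ATRXΔRBR (adjusted p = 0.0363, and 0.0851 without ATRXΔRBR replicate 1) and fell by 7.62 in ATRX KD (adjusted p = 0.000133). Col4a1, with 4 peaks, was at or under 0.68 TPM in every library.

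Of 20 matched genes that respond to TGF-β or YAP, 14 were nearest to 20 peaks. In ATRXΔRBR 1 of the 20 rose (5%) and 3 fell (15%), and in ATRX KD 8 rose (40%) and 1 fell (5%), beside the same shares of protein-coding genes as above. The medians of the list were 0.01 and 0.36. Smad3, a signal transducer of TGF-β, had 3 peaks, each with ATRX in both WT lists and EZH2 in neither ATRXΔRBR list, and its log2 fold changes were 0.32 (adjusted p = 0.387) and 0.41 (adjusted p = 0.0577). Ccn1, a matricellular YAP target, had 445 and 438 TPM in WT and 214 and 229 TPM in ATRXΔRBR, a fall of 1.05 (adjusted p = 0.01001). Amotl2 and Ltbp1 rose in ATRX KD by 1.03 and 0.56 (adjusted p = 0.000851 and 0.0115), and the Ltbp1 call was lost without ATRX KD replicate 1 (0.112) or 2 (0.106). Of the 27 fibroblast transcription factors, 12 were nearest to 17 peaks. Of 24 tested, 1 rose and 1 fell in ATRXΔRBR (4.17% each), and 5 rose (20.8%) and 7 fell (29.2%) in ATRX KD, against 18.4% and 21.1% of protein-coding genes, with medians of 0.07 and 0.01. Zeb1 had 3 peaks, each with ATRX in both WT lists and EZH2 in both ATRXΔRBR lists, and passed the test in neither comparison. Klf4 rose in ATRXΔRBR (0.78, adjusted p = 0.0428) and fell in ATRX KD (−1.03, adjusted p = 0.00327), and the rise was not called without WT replicate 2 (0.179) or ATRXΔRBR replicate 2 (0.111). Egr1 fell in ATRXΔRBR (−0.98, adjusted p = 0.0168). Twist1 fell in ATRX KD by 0.84 (adjusted p = 0.00451).

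Of the 11 AP-1 family genes, 4 were nearest to 7 peaks. Of 9 tested, edgeR called 0 higher and 3 lower (33.3%) in ATRXΔRBR, against 3.35% and 5.03% of protein-coding genes. In the same comparison 1 was higher at an unadjusted p under 0.05 and DESeq2 called 0 higher. In ATRX KD 1 rose (11.1%) and 2 fell (22.2%), against 18.4% and 21.1% of protein-coding genes. The medians were −0.26 and −0.17. Fos was at 10.8 and 13.7 TPM in WT, 6.20 and 6.03 TPM in ATRXΔRBR and 13.7 and 15.0 TPM in ATRX KD, with log2 fold changes of −1.10 (adjusted p = 0.0263) and −0.13 (adjusted p = 0.633). Jun was at 64.8 and 58.3 TPM in WT, 50.4 and 56.9 TPM in ATRXΔRBR and 96.4 and 110 TPM in ATRX KD, with log2 fold changes of −0.26 (adjusted p = 0.521) and 0.52 (adjusted p = 0.0354). The Fos call was lost without ATRXΔRBR replicate 1 (adjusted p = 0.0577) or 2 (0.0658) and the Jun call without ATRX KD replicate 1 (0.0759) or 2 (0.285). Of the 12 matched genes of PRC2 and its partners, Epop, Jarid2 and Phf19 had 1 peak each. In ATRXΔRBR edgeR called 1 of 12 higher (8.33%) and 0 lower, against 3.35% and 5.03% of protein-coding genes. At an unadjusted p under 0.05, 2 were lower, and 1 was lower by DESeq2. In ATRX KD 3 rose (25%) and 5 fell (41.7%), against 18.4% and 21.1% of protein-coding genes. The medians were −0.05 and −0.30. Ezh2 itself, nearest to no peak, had log2 fold changes of 0.28 in ATRXΔRBR (SE 0.16, adjusted p = 0.393) and 0.37 in ATRX KD (SE 0.11, adjusted p = 0.0434, and 0.381 or 0.309 without ATRX KD replicate 1 or 2), while Phf19 rose in ATRX KD by 0.83 (adjusted p = 0.00374).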

How the data were processed

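CUT&RUN and RNA-Seq of MEFs were analysed from processed files. For CUT&RUN, the authors used Bowtie2 for mapping to mm10, and MACS2 was run by them on single libraries in broad mode, at a cutoff of 0.1. As deposited, fold enrichment is a ratio to local background and the −log10 q-value is also from MACS2, and each is a mean over the peak. Neither gives read depth, so presence of a peak was compared and heights were not. For RNA-Seq of polyadenylated RNA, the authors aligned with STAR and deposited expected counts and TPM per gene from RSEM. The deposited FPKM, also from RSEM, and the deposited score of a peak, an integer that the authors' MACS2 derives from significance, were not used, nor were p-values and lengths.

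Overlap was counted from 1 bp. Genes and their TSS were those of GENCODE M21 (53706 of 53801 identifiers of the RNA-Seq table matched), and sequence was read from the RefSeq FASTA of GRCm38. Place was taken at the midpoint, exon before intron. Motifs were searched in the central 300 bp on both strands, where overlapping motifs were counted for each. Expected counts were rounded, genes were tested where the 4 libraries compared summed to over 10 counts, and edgeR 4.0.16 was run with TMM and the quasi-likelihood test in R 4.3.3, with Benjamini-Hochberg adjustment over all genes tested and a threshold of 0.05. DESeq2 1.42.0 was an alternative, and limma 3.58.1 was loaded by edgeR. Peaks were handled with Python 3.11.15, pandas 2.3.3, numpy 2.4.6 and scipy 1.17.1, and figures drawn with matplotlib 3.10.9. The fit was tested on simulated counts.

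Libraries were grouped by their labels, with 2 per group. The study calls replicates biological, and p-values measure the spread between these libraries. Replicates of RNA-Seq differed by more than counting noise, so none was merged. The same replicate numbers do not pair the libraries, and a block on the number was fitted as an alternative. Other alternatives changed the TSS set and window, the overlap, the q-value threshold, the filter on counts, the assignment of genes and the libraries used.

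The peaks and gene lists were chosen with earlier results of these data known. Named are the 10 peaks of highest fold enrichment, the 10 genes nearest to most peaks, the 8 nearest genes of lowest adjusted p in each direction and comparison, up to 8 genes per list (1 of them is not reported here), and 2 sequences per fate. The groups of neighbouring peaks and the chromosomes named were chosen after their values were seen.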

Additional observations from a re-analysis of the deposited data

How the results depend on the processing

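Depth is not known for the peak lists, so absence from a list is not absence of EZH2, and the exact permutation test on 2 libraries per group cannot give p below 0.333. Values of the distal peaks shifted as follows with the way they were chosen. ATRX in ATRXΔRBR, at 33.5%, was 32.8% with a TSS window of 1 kb, 34.5% with 5 kb, 36.4% with every transcript's 5′ end as TSS, 35.6% with q of 0.01 or less, 26.7% with 50% overlap and 35.02% without H3K27me3 within 5 kb. EZH2 in ATRX KD was 14.7% with q of 0.01 or less and 7.43% with 50% overlap. H3K27me3 in ATRXΔRBR was 0.947% with transcript ends, 1.14% with protein-coding TSS, 0.958% with the q limit and 0.6655% with the 5 kb limit, and in ATRX KD 0.4437% with transcript ends, 0.522% with the q limit and 0.466% with 50% overlap. The intron share was 48.2% with transcript ends and 49.0% with protein-coding TSS. Median GC was 51.2% (1 kb), 50.3% (5 kb), 49.5% (transcript ends), 51.4% (protein-coding TSS) and 51.4% (q limit). The same rule at q of 0.01 or less gave 1170 peaks in ATRXΔRBR and 325 in ATRX KD. By single library the shares ran from 49.8 to 68.8% for EZH2 in ATRXΔRBR, 8.96 to 13.7% in ATRX KD, 36.5 to 52.2% for ATRX in WT, 33.1 to 33.9% in ATRXΔRBR, and 0.998 to 1.09% and 0.356 to 0.428% for H3K27me3. The cause of these shifts was not tested.

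Counts of nearest genes called in ATRXΔRBR were 215 higher and 222 lower without the filter on low counts, 229 higher with all 6 libraries in a single fit, and 71 lower with at least 10 counts in every library. Lower calls were 60 of 1620 tested (3.70%) with nearest genes of any biotype, 93 of 1859 (5.003%) within 50 kb and 83 of 1590 (5.22%) for the gene holding the peak, against 147 of 2514 (5.85%). In ATRX KD, nearest genes of any biotype gave 302 higher (18.27%) and 339 lower (20.51%) of 1653. The gene holding the peak gave 325 lower (20.44%) of 1590. Over all genes, ATRXΔRBR had 848 higher and 1131 lower without the filter, 803 and 1012 with all 6 libraries, and 315 and 282 with at least 10 counts in every library. Leaving out a library in turn gave 129 to 164 higher and 122 to 169 lower in ATRXΔRBR and 313 to 837 higher and 352 to 843 lower in ATRX KD. The ATRX KD counts were lowest without ATRX KD replicate 2 (313 and 352) or replicate 1 (342 and 367) and highest without WT replicate 2 (837 and 843) or replicate 1 (789 and 803). Over all genes these ran from 1464 to 4370 higher and 1730 to 4583 lower. Without a library in turn, log2 fold changes in ATRX KD ran from −0.363 to 0.576 for Actb and from −0.162 to 1.10 for Nfib, negative without WT replicate 2, and neither had been called. Median TPM of the nearest genes in WT was 0.230 for any biotype, 16.2 within 50 kb, 16.9 for the gene holding the peak, and 12.1 to 14.2 by single library. From TPM with a pseudocount of 1, the median log2 ratio in ATRX KD was 0.20 for the nearest genes and 0.16 for all tested genes.

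With the replicate number as a block, 108 nearest genes were higher and 138 lower in ATRXΔRBR, and 560 higher and 584 lower in ATRX KD. Deviations of the same-numbered libraries correlated at −0.65 between WT and ATRXΔRBR and −0.12 between WT and ATRX KD over 11428 genes, so that the same numbers did not pair the libraries. Of 83 calls for named genes, 5 were lost under the block, Klf4 (0.148) and Fos (0.0595) in ATRXΔRBR and Ezh2 (0.106) in ATRX KD among them. Klf4 was also lost with at least 10 counts in every library (0.0525), and Ezh2 with DESeq2 (0.0636) and with all 6 libraries (0.0522). Where a library was left out, the other of its group was assumed to vary like the other group. With crossed numbers, an alternative added after the data were seen, the block gave 629 higher and 527 lower in ATRXΔRBR (2647 and 2900 over all genes), and 628 and 653 in ATRX KD. Of named genes in a comparison, 35 that had not passed then did.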

Other observations

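Applying the rule to the other genotypes gave peaks of different sequence. AP-1 letters were in the central 300 bp of 44.3% of the 1861 distal EZH2 peaks without H3K27me3 of ATRXΔRBR that lay on assembled chromosomes, with a median GC content of 53.0%, but of only 9.02% of the 532 such peaks of ATRX KD, with 57.5% GC. Of the 123 ATRX KD peaks that were in neither WT list, 4.88% had AP-1 letters, below the 8.84% of genome windows. These shares rest on the ATRX KD lists, which stood apart from the others in their −log10 q-values.

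AP-1 letters were not particular to sites with EZH2. Distal ATRX peaks found in both WT lists and without H3K27me3 held them in 57.9% of 1815 cases where an EZH2 peak of WT overlapped and in 48.8% of 488 cases where none did. Median fold enrichment of ATRX was 4.68 and 4.33 in these sets. Whether other antibodies or IgG gave peaks at the same sites was not tested, as the IgG libraries were not analysed here.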
